A study of Mus musculus with 48 samples.

Results

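*Sp8*, *Sp9* or *Lhx6* GABAergic neurons of the mouse hypothalamus at E18.5, shortly before birth, were taken as the cells with at least 1 UMI (a tag that counts 1 transcript molecule) of any of *Sp8*, *Sp9* and *Lhx6*, at least 1 UMI of *Gad1* or *Slc32a1*, and 0 UMIs of *Tfap2b*, *Hmx2* and *Hmx3*. These cells, called members here, were thus chosen by their measured UMIs of 8 genes. There were 1072 members among the 14121 cells of the series, of which 660 were control cells and 412 *Eed-cKO* cells. The study compared single-cell RNA sequencing of the hypothalamus between control embryos (*Eed* fl/fl) and *Eed-cKO* embryos (*Eed* fl/fl; Sox1-Cre/+), which lack the polycomb repressor complex 2 (PRC2) subunit *Eed* in the central nervous system. Both genotypes carried the floxed allele, and the *Cre* was an insertion in the *Sox1* locus, so that the deletion was not limited to GABAergic neurons. There were 6 control embryos (2 female and 4 male, 22 libraries) and 9 *Eed-cKO* embryos (5 female and 4 male, 26 libraries). The leading number of the library names, read as the litter although the labels do not say so, gave 4 control and 6 *Eed-cKO* litters and 0 litters with both genotypes, so genotype and litter cannot be told apart.

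*Sp8* and *Sp9* encode zinc finger factors, and *Lhx6* a LIM homeobox factor, of GABAergic neurons that arise from *Dlx*-expressing progenitors of the ventral forebrain. In the telencephalon *Sp8* and *Sp9* mark neurons from the lateral and caudal ganglionic eminences, and *Lhx6* acts below *Nkx2-1* in neurons from the medial one, whereas in the hypothalamus *Lhx6* marks zona incerta and dorsomedial GABAergic neurons. PRC2 places the repressive mark H3K27me3 on histone H3, which keeps developmental regulators of other regions, such as the *Hox* genes of the hindbrain and spinal cord, silent in the forebrain.

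The members of a control embryo numbered 92, 111 and 126 (lowest, median and highest) and held 490695 to 888280 UMIs in all. Those of an *Eed-cKO* embryo numbered 15, 48 and 88 and held 47998 to 661002 UMIs, so single genes were measured less precisely in the mutant. Per cell, the median was 5457.5 UMIs in control and 5149 in *Eed-cKO* members. One control library stood apart by its 1207 cells, against 163 to 465 in the others, and its median of 2919 UMIs, and 91 members came from it. Cell barcodes found in 2 or more libraries belonged to 203 cells, 17 of them members. A single UMI of the 3 factors let in 253 of 660 control members (38.3%) and 232 of 412 *Eed-cKO* members (56.3%). These cells stand just inside the edge of the rule, and just outside it stood 151 control and 107 *Eed-cKO* cells with a factor but no UMI of *Gad1* or *Slc32a1*. *Eed* itself lay at 26.7, 33.0 and 42.5 CPM in control and 0, 18.1 and 31.3 CPM in *Eed-cKO* in members (log2 fold change -0.77, SE 0.26, adjusted p = 0.0856, by edgeR's quasi-likelihood test), which does not check the labels, because transcripts were read near their 3′ ends, outside the deleted exons.

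Members were scarcer in *Eed-cKO* embryos. Their share of the GABAergic cells that carry none of *Tfap2b*, *Hmx2* and *Hmx3* was 18.48%, 25.8% and 29.2% in control embryos (lowest, median and highest) and 9.18%, 15.8% and 20.5% in *Eed-cKO* embryos. The control and mutant ranges overlapped, and the means were 25% ± 4.01 (SD, n = 6) and 15.7% ± 3.62 (SD, n = 9), a difference of -9.23 percentage points (p = 0.000799, exact two-sided permutation test). The test ran over the 5005 divisions of the embryos and can give no p below 0.0002. Of all cells, members made 9.35% ± 1.49 (SD, n = 6) in control and 5.89% ± 1.46 (SD, n = 9) in *Eed-cKO* (p = 0.0014, exact permutation test). Each cell was also thinned to 2000 UMIs, at the cost of 1315 shallower control and 1135 shallower *Eed-cKO* cells, and this gave 17.7% ± 3.71 and 10.52% ± 2.54 of the GABAergic cells.

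The exclusion of *Tfap2b*, *Hmx2* and *Hmx3* weighed on the genotypes unequally. It removed 14 control cells that met the rest of the rule and 142 *Eed-cKO* cells. Of the latter 116 had a UMI of *Tfap2b*, a factor of hindbrain and spinal cord GABAergic neurons, against 0 in control. With those cells kept, the share of all cells was 9.54% ± 1.54 in control and 7.90% ± 2.02 in *Eed-cKO*, a difference of -1.64 percentage points that did not pass the test (p = 0.119, exact permutation test). The share of GABAergic cells was then 22.7% ± 3.67 and 16% ± 3.37 (p = 0.0028, exact permutation test). UMIs of the 3 factors were found in smaller shares of other cell sets than of GABAergic cells. Among cells with *Slc17a6* and no *Gad1*, *Gad2* or *Slc32a1*, 3.41% in control (median 6246 UMIs per cell) and 2.34% in *Eed-cKO* (median 4941) had a UMI of any of them. Among cells with 3 or more markers of a non-neural type, 5.19% in control (median 4081) and 6.29% in *Eed-cKO* (median 4555) had one. Among GABAergic cells the shares were 24.3% and 15.8% (medians 4805.5 and 4836), all pooled over embryos. Of the control cells with *Slc17a6* and none of the 3 GABAergic genes, 0.369% had *Sp8*, 2.63% *Sp9* and 0.415% *Lhx6*. In *Eed-cKO* these shares were 0.604%, 0.755% and 0.981%. Whether the UMIs in these other sets were stray was not tested, nor was the part of stray UMIs in the members' share.

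The members differed in which factor let them in. *Sp8* was found in 31.4%, 43.1% and 47.9% of the members of control embryos and in 21.1%, 30.9% and 41.4% of those of *Eed-cKO* embryos, and *Lhx6* in 21.2%, 32.5% and 47.9% and 34.5%, 45.8% and 50%. The mean share with *Sp8* differed by -9.67 percentage points in *Eed-cKO* and that with *Lhx6* by 12.4 points, given without a test because these genes chose the members. The share with *Sp9* was 46.4% ± 5.68 (SD, n = 6) and 44.4% ± 7.24 (SD, n = 9). The 3 shares are tied to each other, since a member must have at least 1 of the genes. Over all GABAergic cells of the same gate, *Sp8* cells fell from 10.2% ± 2.37 to 5.01% ± 1.73 and *Sp9* cells from 11.5% ± 2.02 to 6.94% ± 1.76 (adjusted p = 0.000599 for each, exact permutation tests, Benjamini-Hochberg over the 3 genes). *Lhx6* cells were at 8.21% ± 3.20 and 7.05% ± 1.81 (adjusted p = 0.408). The 3 genes did not choose this denominator. The gate still left out the 14 control and 142 *Eed-cKO* cells with *Tfap2b*, *Hmx2* or *Hmx3*, and these shares were not computed with them kept. The higher *Lhx6* share among members thus did not go with a higher mean share of *Lhx6* cells among GABAergic cells.

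Cells with both *Sp8* and *Sp9* and no *Lhx6* made 8.84% ± 3.33 of control and 3.15% ± 2.90 of *Eed-cKO* members, and those with all 3 factors 1.04% ± 0.987 and 2.97% ± 2.48, values given as a description. When at least 2 UMIs of the 3 factors were asked, the differences of the *Sp8* and *Lhx6* shares among members were -5.33 and 14.5 percentage points, and after thinning to 2000 UMIs they were -2.82 and 4.84 points. Members made 15.6% ± 3.24 of the control and 6.94% ± 2.15 of the *Eed-cKO* GABAergic cells under the stricter gate.

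**Figure D1:**
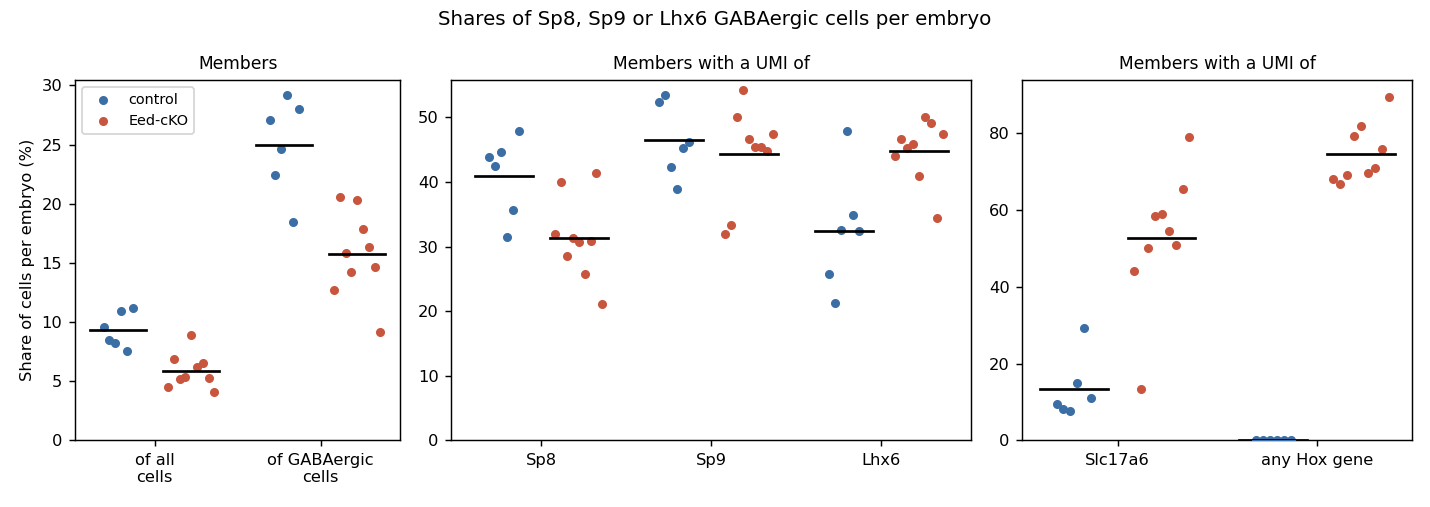
Share of cells per embryo in percent. Each point is 1 embryo (6 control, 9 *Eed-cKO*) and each black bar the mean over embryos. Left, members among all cells and among GABAergic cells without *Tfap2b*, *Hmx2* or *Hmx3*, middle, members with a UMI of *Sp8*, *Sp9* and *Lhx6*, right, members with a UMI of *Slc17a6* and of any *Hox* gene. Control embryos reach 29.2% of GABAergic cells and *Eed-cKO* embryos 20.5%, and the *Hox* share is 0 in every control embryo.

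As levels, which the rule used and which are therefore given without a test, *Sp8* lay at 115, 158 and 188 CPM in control members and at 29.5, 91.4 and 182 CPM in *Eed-cKO* members (lowest, median and highest embryo). CPM are UMI counts scaled to a TMM-normalized total of 1000000 per embryo. *Sp9* lay at 119.5, 144 and 156 and 91.1, 113 and 149.8 CPM, and *Lhx6* at 111, 173 and 352 and 80.0, 174 and 270.4 CPM. *Gad1*, which encodes a GABA-synthesizing enzyme, was at 788, 945 and 1251 and 658, 826 and 990.4 CPM, and the vesicular GABA transporter gene *Slc32a1* at 241, 297 and 374 and 140.1, 217 and 281 CPM. The embryos of the genotypes overlapped for all 5 genes.

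Mutant members carried less *Gad2* and more *Slc17a6*. *Gad2*, another GABA-synthesizing enzyme gene, which the rule did not use, was found in 506 of 660 control members (76.7%) and 278 of 412 *Eed-cKO* members (67.5%), and its level fell (log2 fold change -0.48, SE 0.12, adjusted p = 0.00798). The call of *Gad2* was lost under 3 of 32 alternatives. These were thinning to 2000 UMIs, at least 2 UMIs of the 3 factors, and members without *Slc17a6*. Over the 32 alternatives its log2 fold change ran from -0.82 to -0.073. *Slc17a6*, the vesicular glutamate transporter gene that marks glutamatergic neurons of the hypothalamus, was found in 7.61%, 10.3% and 29.4% of the members of control embryos and in 13.3%, 54.5% and 78.9% of those of *Eed-cKO* embryos. The means were 13.4% ± 8.24 (SD, n = 6) and 52.7% ± 17.9 (SD, n = 9) (p = 0.000999, exact permutation test). Pooled over embryos, 14.1% of control and 54.1% of *Eed-cKO* members had a UMI of it, against 14.7% of control (median 4081 UMIs per cell) and 21.03% of *Eed-cKO* cells (median 4555) with 3 or more markers of a non-neural type, so the control share was no higher than that background. The highest control value was that of the embryo with the 1207-cell library, and the control mean was 10.9% ± 3.10 without that library. The lowest mutant value came from the embryo with 15 members. After thinning to 2000 UMIs the shares were 5.11% ± 4.46 and 25.8% ± 13.1 (p = 0.005, exact permutation test). Of *Eed-cKO* members let in by at least 2 UMIs, 43.9% ± 15.6 had *Slc17a6*. The other GABAergic cells were those with *Gad1* or *Slc32a1* and none of the 6 other genes of the rule. Of these 26.1% in control and 55.9% in *Eed-cKO* had a UMI of *Slc17a6*, pooled over embryos, so the mutant shares of both cell sets lay close together.

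Expression was compared between genotypes on the summed counts of each embryo's members with edgeR's quasi-likelihood test and Benjamini-Hochberg adjustment over the 12270 genes tested. In all, 587 genes passed an adjusted p of 0.05, which is 4.78% of the genes tested, with 325 higher (2.65%) and 262 lower (2.14%) in *Eed-cKO*. The embryos of the genotypes did not overlap for 121 genes (0.986%), with every *Eed-cKO* embryo above every control embryo for 52 (0.424%) and below for 69 (0.562%). The median log2 fold change of all genes tested was -0.016. With cells thinned to 2000 UMIs 158 genes passed (60 higher and 98 lower), 126 of them among the 587, and with at least 2 UMIs of the 3 factors 274 passed (139 and 135). Without the 1207-cell library 695 genes passed, and without the members that held 3 or more different markers of a non-neural cell type (9 control and 14 *Eed-cKO* cells) 593 passed. With library size alone as the scaling, 376 of 560 genes that passed were higher, a larger part than 325 of 587.

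*Hox* genes, which pattern the hindbrain and spinal cord, led the rises. Of the 34 *Hox* genes in the table, 32 had a UMI in members, and 22 passed the filter on low counts. All 22 were higher in *Eed-cKO*. Since no control member held a *Hox* UMI, each could pass that filter only through the mutant, and the count is a description. The summed level of the *Hox* genes was 0 in all 6 control embryos and 597 to 1203 CPM in the 9 *Eed-cKO* embryos. At least 1 *Hox* UMI was found in 66.7%, 70.9% and 89.5% of the members of *Eed-cKO* embryos (lowest, median and highest) and in 0 of 660 control members, which allows a control share of up to 0.455% by counting error (p = 0.0002, exact permutation test, the smallest it can give). Pooled over embryos, a *Hox* UMI was found in 74.5% of *Eed-cKO* members (median 5149 UMIs per cell), in 53.9% of the other *Eed-cKO* GABAergic cells (median 4766), against 0.292% in control, and in 35.5% of the *Eed-cKO* cells with 3 or more markers of a non-neural type (median 4555), against 0.576% in control. The part of stray *Hox* RNA in the members' share was not tested.

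*Hoxc10* (chr15:102966796-102971893, GRCm38) was at 53.3, 121 and 237 CPM in *Eed-cKO* embryos and at 0 UMIs in control, at least 154-fold higher with control set at 3 UMIs over its embryos. In the same way *Hoxc13* was at least 102-fold higher, *Hoxa9* at least 94.4-fold, *Hoxa10* at least 92.3-fold and *Hoxb13* at least 89.6-fold. *Hoxa5* (at least 75.3-fold), *Hoxa7* (at least 66.3-fold), *Hoxd10* (at least 65.8-fold) and *Hoxc8* (at least 62.6-fold) complete the *Hox* genes among the 12 largest rises. Genes of the *HoxA*, *HoxB*, *HoxC* and *HoxD* clusters were among them. The annotated spans of *Hoxc10* and *Hoxc8* overlap that of *Hoxc5*, which had 0 UMIs in members. The span of *Hoxa5* overlaps that of *Hoxa3*, and the spans of *Hoxa5* and *Hoxa7* overlap the antisense gene *Hoxaas3*. Spans and not exons were compared, here and below, so whether reads were shared was not tested. The other 3 of the 12 were *Vax2*, a homeobox gene of the ventral eye and forebrain (at least 64.2-fold higher, span overlapping antisense *Vax2os*), *Mira*, a noncoding RNA of the *HoxA* cluster (at least 57.3-fold), and *Twist1*, a mesodermal bHLH gene (at least 44.0-fold).

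Promoters are printed for the pair of genes with the largest rises and the pair with the largest falls among those that have an entry in RefSeq's promoter table, predicted genes left out, to show the CG counted below. PRC2 is known to be recruited to CG-rich promoters of silent genes. Each is the 200 bases before a RefSeq start on GRCm38.p6, 5′ to 3′, with the dinucleotide CG in capitals.
*Hoxa9*, chr6:52227371-52227570, minus strand: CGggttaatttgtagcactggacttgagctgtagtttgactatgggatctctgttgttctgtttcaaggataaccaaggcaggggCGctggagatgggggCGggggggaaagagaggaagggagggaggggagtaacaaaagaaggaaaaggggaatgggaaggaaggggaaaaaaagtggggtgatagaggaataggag
*Hoxa10*, chr6:52240855-52241054, minus strand: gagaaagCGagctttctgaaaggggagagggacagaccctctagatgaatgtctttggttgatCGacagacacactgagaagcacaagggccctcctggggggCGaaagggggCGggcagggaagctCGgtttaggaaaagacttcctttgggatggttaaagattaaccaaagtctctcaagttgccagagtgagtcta
*Htr1a*, chr13:105443493-105443692, plus strand: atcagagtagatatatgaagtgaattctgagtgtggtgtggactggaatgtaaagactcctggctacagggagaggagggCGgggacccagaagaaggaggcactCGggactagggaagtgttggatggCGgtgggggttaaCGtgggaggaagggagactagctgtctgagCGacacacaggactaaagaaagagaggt
*Myo7a*, chr7:98119494-98119693, minus strand: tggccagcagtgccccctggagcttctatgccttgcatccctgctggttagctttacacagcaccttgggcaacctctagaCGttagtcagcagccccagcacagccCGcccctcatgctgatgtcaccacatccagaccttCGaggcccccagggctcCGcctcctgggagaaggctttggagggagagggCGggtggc
The 250 bases before the start held 3 CG in *Hoxa9*, 7 in *Hoxa10* and 6 in each of *Htr1a* and *Myo7a*. Of the risen genes, 219 of 325 had an entry and 70.3% of these held 10 or more CG. The share was 69.1% of the 188 fallen genes with an entry, 77.4% of the 9374 genes tested in members and 38.2% of the 27025 promoters used. For the *Hox* genes tested, 13 of 22 had an entry, with 3 to 31 CG. The shares of the risen and of the fallen genes thus lay near each other and below that of all genes tested.

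**Figure D2:**
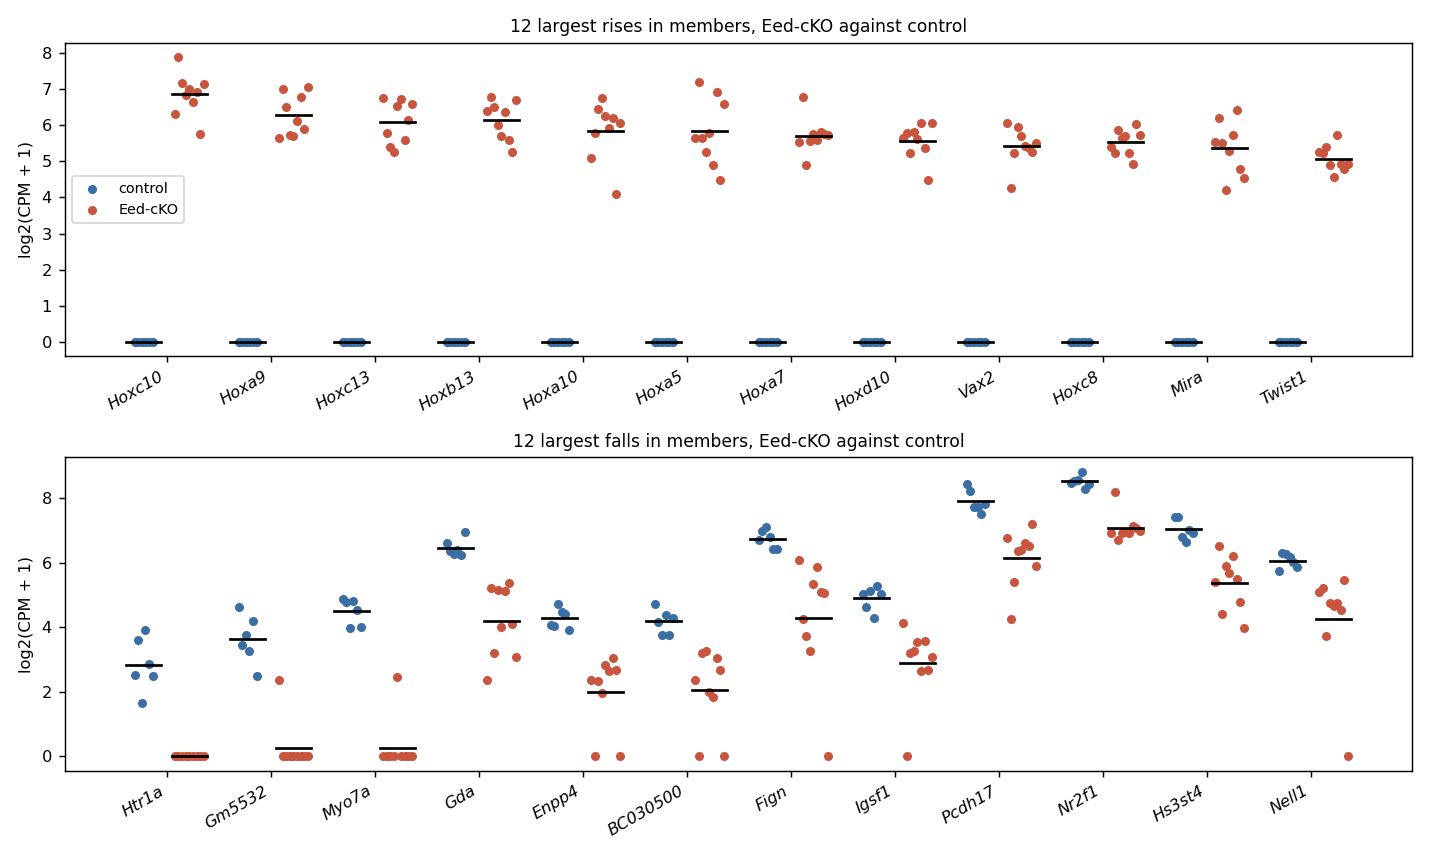
Level in members as log2(CPM + 1), 1 point per embryo (6 control, 9 *Eed-cKO*), black bars for means. Top, the 12 largest rises, at 0 in every control embryo. Bottom, the 12 largest falls, in which every *Eed-cKO* embryo lies below every control embryo, a condition of their choice.

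Factors that set transmitter fate in the hindbrain and spinal cord rose next. Of the 32 in the list, 24 were in the table and 16 were tested, of which 9 were higher and 0 lower, against 2.65% of all genes higher, and their median log2 fold change was 2.14. *Tal1*, a bHLH factor of GABAergic neurons of the midbrain and spinal cord, was at 0, 1.06 and 19.6 CPM in control and 91.1, 159 and 229 CPM in *Eed-cKO* (log2 fold change 5.09, SE 0.34, adjusted p = 8.00e-15), and every mutant embryo lay above every control embryo. *Gata3*, a zinc finger partner of *Tal1*, was at 0, 0.787 and 33.6 CPM in control and 18.2, 66.4 and 110.0 CPM in *Eed-cKO* (log2 fold change 3.32, adjusted p = 5.21e-07), with 1 control embryo above the rest. *Gata2* had 0 UMIs in control members and was at least 21.7-fold higher. Such genes of the list could pass the filter on low counts only through the mutant, so the count of 9 is a description. *Tfap2a*, a factor of dorsal inhibitory neurons and of neural crest, had 1 control and 49 *Eed-cKO* UMIs, a ratio of 80.8 (95% counting interval 13.8 to 3256, adjusted p = 2.35e-07). The cells with *Tfap2b*, its closest relative, had been left out by the rule.

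Of the regional factors of the hypothalamus 12 of 26 tested genes were higher and 2 lower, against 2.65% and 2.14% of all genes tested, the shares behind each list count below, with a median log2 fold change of 0.74. *Tbx3*, which marks the tuberal hypothalamus, was at 1.57, 3.53 and 9.44 CPM in control and 5.33, 32.9 and 65.3 CPM in *Eed-cKO* (log2 fold change 2.89, adjusted p = 2.93e-06). *Otx2*, a homeobox gene of the anterior brain, was at 1.57, 4.44 and 11.4 CPM in control and 16.3, 36.5 and 43.4 CPM in *Eed-cKO*, without overlap of the embryos (log2 fold change 2.41, adjusted p = 9.32e-06). *Fezf1*, known from the ventromedial nucleus, was at 0, 1.16 and 14.2 CPM in control and 8.17, 36.6 and 65.8 CPM in *Eed-cKO* (log2 fold change 3.09, adjusted p = 1.45e-05). The list's fallen genes were *Pax6* and *Six3*, homeobox genes of the anterior forebrain. *Vax2*, among its risen genes, had 0 control UMIs and could pass the filter on low counts only through the mutant. Among glutamatergic markers 2 of 7 tested genes rose: *Slc17a6*, at 44.8, 55.5 and 123 CPM in control and 72.9, 289 and 407 CPM in *Eed-cKO* (log2 fold change 2.19, SE 0.18, adjusted p = 3.41e-12), and *Tbr1*, a T-box gene of glutamatergic neurons (log2 fold change 3.84, adjusted p = 4.51e-07).

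Cyclin-dependent kinase inhibitors, which halt the cell cycle, rose in 4 of 7 tested genes (2.65% of all genes). *Cdkn2b* and *Cdkn2a* had 0 UMIs in control members and were at least 20.2-fold and at least 12.2-fold higher, with 38 and 23 UMIs in *Eed-cKO* members. Both could pass the filter on low counts only through the mutant, so the count of 4 is a description. *Cdkn1c* and *Cdkn1b* rose by less (log2 fold changes 0.90 and 0.72, adjusted p = 0.00263 and 0.0183). The call of *Cdkn1b* was lost under 7 of 32 alternatives, among them when 1 of several embryos was left out. Of 10 PRC2 subunit genes tested, 0 passed edgeR's test: *Rbbp4* was at 234, 292 and 316 CPM in control and 128, 278 and 336 CPM in *Eed-cKO* and *Rbbp7* at 151, 175 and 211 CPM in control and 118, 155 and 192 CPM in *Eed-cKO*. Of 20 PRC1 subunit genes 2 rose, among them *Bmi1*, at 72.3, 87.7 and 112 CPM in control and 236, 264 and 383 CPM in *Eed-cKO* without overlap (log2 fold change 1.62, SE 0.13, adjusted p = 2.32e-12).

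The 12 largest falls were of genes that the members carried in control. *Nr2f1* (chr13:78188973-78199757), a nuclear receptor gene of interneurons from the caudal ganglionic eminence, was at 309.8, 360.4 and 450.1 CPM in control and 102, 122 and 292 CPM in *Eed-cKO* (log2 fold change -1.51, SE 0.13, adjusted p = 7.60e-12), with 1 mutant embryo, the one with 15 members, far above the others. *Gda* (chr19:21391307-21473445), which encodes guanine deaminase, was at 73.9, 81.8 and 122 CPM in control and 4.13, 16 and 40.2 CPM in *Eed-cKO* (log2 fold change -2.02, SE 0.25, adjusted p = 9.93e-08). *Pcdh17*, a protocadherin gene, was at 182, 219 and 346 CPM in control and 18.2, 83.2 and 144 CPM in *Eed-cKO* (log2 fold change -1.52, adjusted p = 1.05e-08).

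The serotonin receptor gene *Htr1a* (chr13:105443639-105448122) had 30 UMIs in control members and 0 in *Eed-cKO* members, at least 6.29-fold lower. The unconventional myosin gene *Myo7a* had 90 and 3 UMIs, 18.2-fold higher in control (95% counting interval 6.03 to 89.9), and the predicted gene *Gm5532* 49 and 1, 29.7-fold higher in control (5.09 to 1197). The other 6 fell by 1.42 to 1.91 on the log2 scale: *Enpp4* (-1.91), *BC030500* (-1.83, its span overlapping antisense *Galntl6*), *Fign* (-1.67), the pituitary and hypothalamic immunoglobulin gene *Igsf1* (-1.66), the heparan sulfotransferase gene *Hs3st4* (-1.50) and *Nell1* (-1.42).

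Of the *Dlx* and other factors that specify GABAergic neurons, 5 of 16 tested genes fell and 1 rose (background 2.14% lower). Among the 5, 1 had 0 UMIs in mutant members and could pass the filter on low counts only through control. *Dlx1* was at 337, 479.8 and 527 CPM in control and 146, 214 and 387 CPM in *Eed-cKO* (log2 fold change -1.0, SE 0.13, adjusted p = 3.52e-07), with 1 mutant embryo inside the control range, and its annotated span overlaps that of antisense *Dlx1as*. *Isl1*, a LIM homeobox gene of ventral forebrain neurons, had a log2 fold change of -0.64 (adjusted p = 0.0114). Its call was lost under 6 of 32 alternatives, among them DESeq2, limma-voom, thinning to 2000 UMIs and leaving out control replicate 2. In members with *Lhx6* and neither *Sp8* nor *Sp9* it turned to 1.86 (adjusted p = 0.000136). *Meis1*, the one gene that rose, had a log2 fold change of 2.15 (adjusted p = 8.71e-06). In GABA synthesis, transport and release 5 genes were tested, of which *Abat*, the GABA-degrading transaminase gene, rose (0.60, adjusted p = 0.00264) and *Gad2* fell.

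Partners of the *Sp8*, *Sp9* and *Lhx6* lineages fell in 6 of 30 tested genes and rose in 2 (2.14% and 2.65% of all genes), with a median log2 fold change of -0.06. *Nr2f2*, the relative of *Nr2f1*, was at 443, 610.1 and 774 CPM in control and 243, 368 and 523 CPM in *Eed-cKO* (log2 fold change -0.68, adjusted p = 0.000381). *Nkx2-1*, the regulator of *Lhx6* in the medial ganglionic eminence and a gene of the ventral hypothalamus, was at 47.6, 80.0 and 104 CPM in control and 49.6, 164 and 227 CPM in *Eed-cKO* (log2 fold change 1.01, adjusted p = 0.000966), and turned to -0.36 (adjusted p = 0.866) in members with *Lhx6* and neither *Sp8* nor *Sp9*. The nuclear receptor gene *Esrrg* fell as well (-1.0, adjusted p = 0.00323), so that *Dlx1*, *Gda* and *Esrrg*, the listed markers of the members beyond the genes of the rule, were all lower in *Eed-cKO*. The list was chosen with earlier results of these cells known, so its direction is not independent evidence. The call of *Gda* held under all 32 alternatives. That of *Dlx1* was lost with at least 2 UMIs of the 3 factors (adjusted p = 0.128, edgeR). That of *Esrrg* was lost after thinning to 2000 UMIs and in members with *Lhx6* and neither *Sp8* nor *Sp9*. *Gda* and *Dlx1* also fell in the GABAergic cells outside the members (-1.72 and -1.60), where *Esrrg* was at -0.28 (adjusted p = 0.485, edgeR). In control, *Gda* lay at 88.6 ± 18.2 CPM in members and 73.6 ± 20.6 CPM in those other cells.

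Peptide and calcium-binding genes that mark subtypes split in direction, 4 of 27 higher and 5 lower (2.65% and 2.14% of all genes). The satiety peptide gene *Cartpt* was at 5.68, 12.9 and 33.6 CPM in control and 29.0, 73.7 and 475 CPM in *Eed-cKO* (log2 fold change 2.74, adjusted p = 1.53e-05), where the highest mutant embryo lay far above the rest. *Cck* rose (1.41, adjusted p = 0.00206), and the calretinin gene *Calb2* fell from 96.7, 180.2 and 219 to 18.3, 57.9 and 164 CPM (-1.37, adjusted p = 2.38e-05). The neurokinin B gene *Tac2* had 96 control and 3 *Eed-cKO* UMIs, 19.4-fold higher in control (95% counting interval 6.44 to 95.7, adjusted p = 3.52e-05).

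Genes of the synapse and of migration that passed all fell, where 2.14% of all genes were lower. Among GABA-A receptor subunits and their scaffold 4 of 14 tested genes were lower, among them *Gabrg1* (-1.14, adjusted p = 9.37e-05) and *Gabrb2* (-0.71, adjusted p = 0.00148). Among 29 genes of synaptic vesicles and release 4 were lower, led by the calcium sensor gene *Syt1*. It was at 428, 461 and 563 CPM in control and 300.4, 335 and 421 CPM in *Eed-cKO* without overlap (log2 fold change -0.49, SE 0.10, adjusted p = 0.00196). *Syt5* (-0.60, adjusted p = 0.0027) and *Snap91* (-0.37, adjusted p = 0.0316) fell as well. Of 33 genes of migration and guidance 5 were lower. They included the ephrin receptor gene *Epha5* (-1.35, adjusted p = 4.71e-07), the cadherin gene *Cdh8* (-1.33, adjusted p = 9.20e-06), the semaphorin gene *Sema3c* (-1.04, adjusted p = 0.00136) and *Pcdh10* (-0.65, adjusted p = 0.0037). In members with *Sp8* or *Sp9* and no *Lhx6*, *Sema3c* was at 0.0032 (adjusted p = 0.998). The call of *Snap91* was lost with library size alone as the scaling and when 1 of several embryos was left out.

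Of 14 genes of immature neurons 2 rose and 2 fell, and of 17 genes of mature neurons 2 rose and 0 fell, against 2.65% of all genes higher and 2.14% lower. *Igfbpl1* (1.29, adjusted p = 3.43e-06) and *Nhlh2* (1.22, adjusted p = 0.00343) rose and *Elavl2* (-0.57, adjusted p = 0.00136) and *Stmn2* (-0.30, adjusted p = 0.00769) fell among the immature genes, and the neurofilament gene *Nefl* (0.63, adjusted p = 0.0268) and *Thy1* (0.70, adjusted p = 0.0462) rose among the mature ones. *Nefl* turned to -0.90 (adjusted p = 0.0372), *Thy1* to -0.67 and *Nhlh2* to -0.27 in members without *Slc17a6*. The calls of *Nefl* and *Thy1* were lost under 13 and 15 of 32 alternatives, among them when 1 of several embryos was left out. The pan-neuronal list, 8 of 8 genes found, summed to 8810.5 to 9289.8 CPM in control and 7708 to 8730.2 CPM in *Eed-cKO*, with *Syt1* and *Stmn2* its 2 genes that fell.

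**Figure D3:**
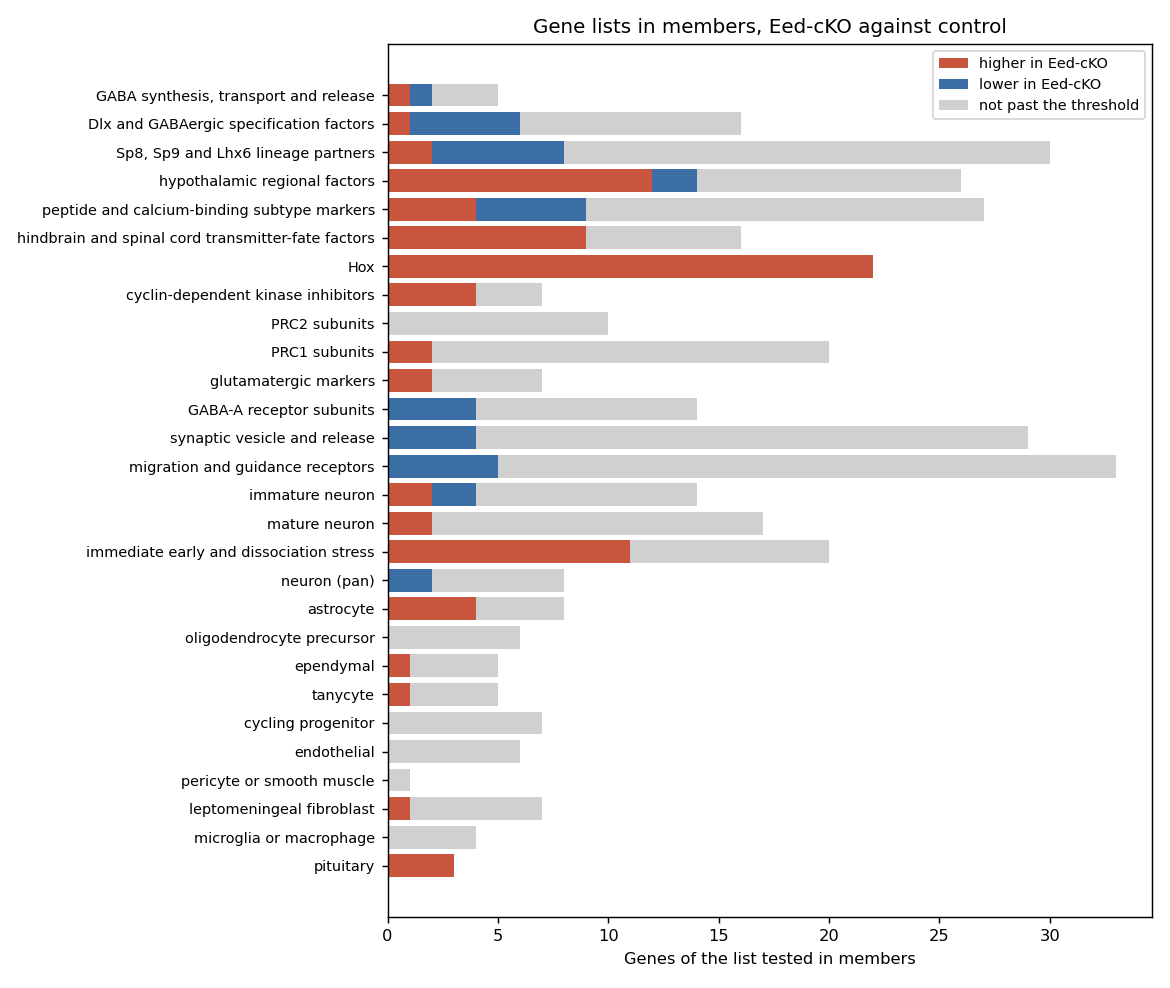
Number of genes of each list tested in members, split into genes higher in *Eed-cKO*, lower in *Eed-cKO* and not past an adjusted p of 0.05 (edgeR). All 22 *Hox* genes tested were higher, and 0 of 10 PRC2 subunit genes passed.

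Genes of other cell types and of handling moved with the genotype in the same sums. Of 20 immediate early and dissociation stress genes, which are induced within minutes when tissue is taken apart, 11 were higher and 0 lower, against 2.65% of all genes higher, and their sum was 2472 to 3243 CPM in control and 2169 to 4161 CPM in *Eed-cKO* embryos. *Fos* was at 71.0, 168 and 280.1 CPM in control and 149, 406 and 605 CPM in *Eed-cKO* (log2 fold change 1.3, adjusted p = 6.27e-06), *Egr1* had 1.48 (adjusted p = 8.34e-06), *Ier2* 2.06 (adjusted p = 1.15e-05) and *Fosb* 1.76 (adjusted p = 1.74e-05). Their part in the other results was not tested.

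Of the astrocyte markers 9 of 10 were found, with *Agt* at 0 in both genotypes and *Gfap* at 0 in control. Of 8 tested genes 4 rose: *Slc1a3* (2.55, adjusted p = 0.000322), *Fabp7* (2.04, adjusted p = 0.00303, lost without *Eed-cKO* replicate 5), *Aldoc* (1.08, adjusted p = 0.00496) and *Aqp4* (3.49, adjusted p = 0.0153, 1 control UMI). *Aqp4* was detected in 4 of 9 *Eed-cKO* embryos. The calls of *Slc1a3*, *Fabp7* and *Aqp4* were lost with DESeq2, and that of *Aldoc* under 4 of 32 other alternatives. The sum of the list was 214 to 369 CPM in control and 255 to 1309 CPM in *Eed-cKO*. Of microglia and macrophage markers 8 of 8 were found, in sum at 1.4 to 56.8 CPM and 0 to 416 CPM, and 0 of 4 tested passed, with *C1qb* at up to 101 CPM and *C1qc* at up to 96.0 CPM in the same *Eed-cKO* embryo. The sums were 0 to 399.7 CPM and 0 to 939 CPM for leptomeningeal fibroblasts (8 of 8 found), whose *Dcn* rose from 3 to 29 UMIs (3.40, adjusted p = 0.00931). *Dcn* was detected in 4 of 9 *Eed-cKO* embryos, with a median of 0 CPM in both genotypes, and its call was lost with DESeq2. The list sums were 1.4 to 70.8 CPM and 0 to 34.8 CPM for endothelial cells (8 of 8) and 1.16 to 9.44 CPM and 0 to 128 CPM for pericytes or smooth muscle (8 of 8, with *Rgs5*, *Kcnj8*, *Abcc9* and *Higd1b* at 0 in control). The part of such RNA in the rises was not tested.

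Pituitary genes rose in 3 of 3 tested, among them *Pitx1*, at least 7.95-fold higher, and the glycoprotein hormone gene *Cga*, at least 15.9-fold higher, its UMIs mostly from 1 embryo. *Pitx1* and *Cga* had 0 control UMIs and could pass the filter on low counts only through the mutant, so this count is a description. The ependymal gene *Foxj1* (1.87, adjusted p = 0.0317, 1 of 5) and the tanycyte gene *Crym* (3.27, adjusted p = 6.20e-05, 1 of 5) rose, with *Ccdc153* of the ependymal list at 0 in both genotypes and list sums of 27.0 to 48.8 CPM and 21.3 to 106 CPM, and of 153 to 198 CPM and 128 to 290.3 CPM. The call of *Foxj1* was lost under 9 of 30 alternatives, among them when 1 of several embryos was left out. Of the lists for oligodendrocyte precursors (sums 89.7 to 251 CPM and 54.7 to 197 CPM), cycling (42.3 to 78.0 CPM and 51.2 to 190.1 CPM), endothelial and pericyte cells 0 of 6, 7, 6 and 1 tested genes passed edgeR's test. Examples that did not pass were *Olig1* (-0.52, adjusted p = 0.771), *Lhfpl3* (-0.47, adjusted p = 0.198), *Pcna* (0.13, adjusted p = 0.855), *Hmgb2* (1.3, adjusted p = 0.0504), *Kdr* (-1.27, adjusted p = 0.463), *Esam* (-0.25, adjusted p = 0.895) and *Myl9* (1.63, adjusted p = 0.115).

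Whether the genotype acted differently on members than on the other GABAergic cells (2058 control and 2203 *Eed-cKO*) was tested by the interaction of genotype and cell set with the embryo as a term. Of 14739 genes, 65 passed (0.441%), with the effect more positive in members for 40 (0.271%) and more negative for 25 (0.17%). In other GABAergic cells 863 of 14486 genes were higher (5.96%) and 516 lower (3.56%) in *Eed-cKO*, together 9.52%. Of the 587 genes that passed in members, 429 passed there in the same direction and 1 in the opposite one. The sums of the other GABAergic cells came from the same embryos as the members. In the other GABAergic cells 28 of 28 *Hox* genes tested were higher. That 0 *Hox* genes passed edgeR's interaction test carries no information, since with 0 UMIs in control members the ratio to control cannot be estimated there.

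*Slc17a6* was at 44.8, 55.5 and 123 CPM in control members and 146, 175 and 207 CPM in other control GABAergic cells, and at 72.9, 289 and 407 and 222, 330.1 and 459.8 CPM in *Eed-cKO*. Members thus started lower in control and came close to the other cells in the mutant (difference of log2 fold changes 1.25, SE 0.13, adjusted p = 5.10e-11). The same held for *Onecut2*, a cut homeobox gene, with 75.3, 104 and 146 against 137, 172 and 199 CPM in control and 213, 292 and 409 against 225, 259 and 338 CPM in *Eed-cKO* (0.83, SE 0.13, adjusted p = 7.84e-06). *Fabp7*, a fatty acid binding protein gene of radial glia and astrocytes, was at 2.33, 19 and 129 against 85.1, 258 and 553 CPM in control and 0, 91.4 and 522 against 15.9, 254 and 408 CPM in *Eed-cKO* (2.17, SE 0.26, adjusted p = 1.20e-08). The glial lipoprotein gene *Apoe* (2.31, SE 0.36, adjusted p = 2.24e-05) and the lipid phosphatase gene *Ppap2b* (2.08, SE 0.33, adjusted p = 3.01e-05) differed in the same direction, and their levels in members spread from 0 to 859 and 126 CPM in *Eed-cKO* embryos. The part of glial RNA in these values was not tested.

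*Tac2* went the other way, falling in members and at 1.12 (adjusted p = 0.249) in other GABAergic cells (-5.21, SE 0.75, adjusted p = 2.30e-06). The interaction passed too, among genes of the lists, for *Tal1* (1.91, SE 0.41, adjusted p = 0.00588), *Gata3* (2.23, SE 0.38, adjusted p = 0.000137), *Tbr1* (3.22, SE 0.52, adjusted p = 3.52e-05) and *Fezf1* (2.15, SE 0.45, adjusted p = 0.0038), whose log2 fold changes were larger in members. These folds rest on few control UMIs, with 18, 28, 7 and 16 in control members. Mean *Tbr1* stayed lower in members than in other GABAergic cells, at 1.65 against 21.3 CPM in control. In *Eed-cKO* it was at 25.1 against 39.3 CPM, lower in members in 7 of 9 embryos. *Dlx1* fell less in members (difference 0.57, adjusted p = 0.00722). It was at 226, 305 and 353 CPM in the other control cells and 70.1, 99.4 and 153 CPM in the other *Eed-cKO* cells, below the members in both genotypes.

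**Figure D4:**
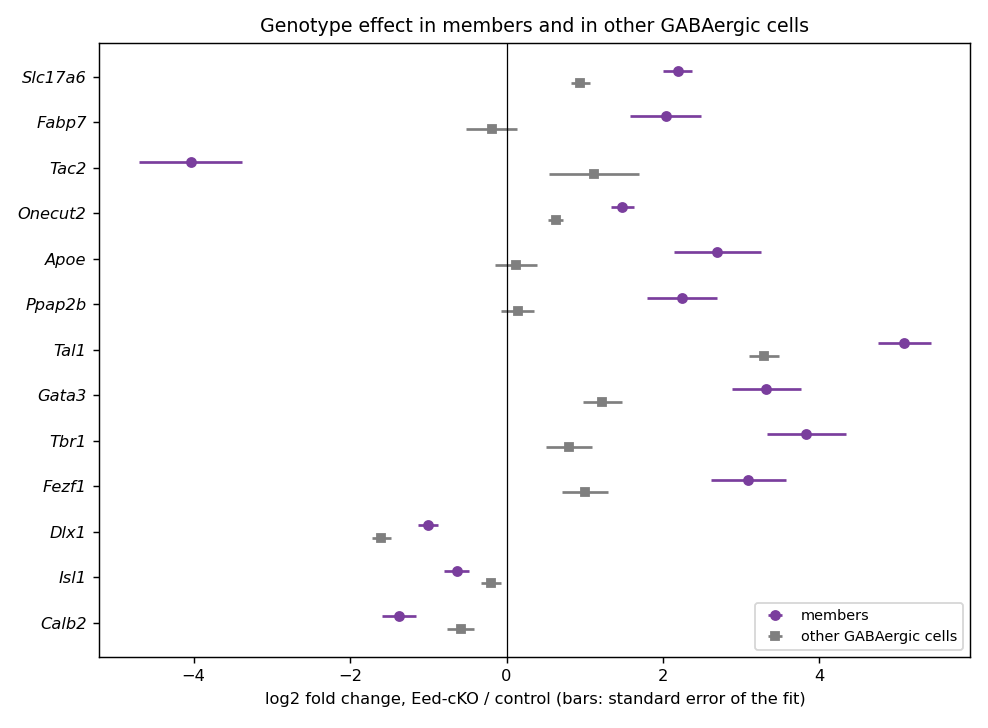
Log2 fold change, *Eed-cKO* over control, with the standard error of the fit, in members (circles) and in other GABAergic cells (squares) for 13 genes past the threshold of the interaction. *Slc17a6* stands at 2.19 and 0.94, *Tac2* at -4.04 and 1.12, and *Dlx1* at -1.0 and -1.60.

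Within control, members and other GABAergic cells are set side by side as a description, because the rule chose the cells by their counts, and the genes were chosen after their values were seen. *Meis2*, a TALE homeobox gene of the lateral ganglionic eminence, was at 409 ± 156 against 154 ± 49.7 CPM (mean ± SD over 6 embryos), higher in 6 of 6 embryos. *Pax6* was at 109 ± 70.3 against 35.3 ± 15.5 CPM, *Esrrg* at 107 ± 36.9 against 43.9 ± 16.6 CPM and the zinc finger gene *St18* at 104 ± 37.4 against 27.0 ± 11.1 CPM, again in 6 of 6. Other forebrain genes lay near the same level in both, such as *Six3* (350.5 ± 180.3 against 352 ± 94.9 CPM, higher in 2 of 6) and *Bcl11b* (84.7 ± 53.9 against 91.6 ± 24.6 CPM, higher in 1 of 6). Peptide genes went both ways. *Agrp* (7.08 ± 14.5 against 82.4 ± 29.5 CPM) and *Vip* (0 ± 0 against 15.3 ± 9.01 CPM) were lower in members in 6 of 6 embryos each, while *Pnoc* (143 ± 34.0 against 93.4 ± 19.8 CPM) was higher in 5 of 6 and *Tac2* (24.8 ± 15.8 against 10.6 ± 6.69 CPM) in 4 of 6. In *Eed-cKO*, *St18* was at 146 ± 58.2 against 42.5 ± 12.2 CPM, higher in 9 of 9 embryos, and *Pax6* at 48.7 ± 53.3 against 17.1 ± 11.3 CPM, higher in 6 of 9.

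The members let in by *Sp8* or *Sp9* alone (442 control and 227 *Eed-cKO* cells) and by *Lhx6* alone (151 and 124 cells) differed in regional factors in control, described here without a test. *Meis2* was at 283, 558 and 721 CPM in *Sp8* or *Sp9* members and at 0, 0 and 17.7 CPM in *Lhx6* members (lowest, median and highest control embryo, scaled to each embryo's UMIs in those cells). *Pax6* (51.9, 135 and 267 against 0, 0 and 6.17 CPM) and *Isl1* (231, 406 and 451 against 17.7, 40.3 and 87.0 CPM) were on the same side in 6 of 6 embryos. *Lhx8*, a LIM homeobox gene of ventral forebrain neurons (0, 3.54 and 32.9 against 49.3, 99.7 and 349 CPM), *Nkx2-1* (9.68, 31.7 and 60.5 against 123, 158 and 242 CPM) and *Sema3c* (28.3, 45.7 and 78.8 against 55.6, 209 and 308 CPM) were on the *Lhx6* side in 6 of 6.

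In *Eed-cKO* the gap between these members was narrower for some of these genes. The interaction of genotype and this split, with the embryo as a term, was tested after these values were seen, and 46 of 12071 genes passed (0.381%). The split used genes of the rule, and a mutant embryo held 5, 12 and 23 *Lhx6* members (lowest, median and highest). The adjusted p-values of this split thus describe the fit and are not independent evidence. The effect was more positive in *Sp8* or *Sp9* members for 28 (0.232%) and more negative for 18 (0.149%). *Meis2* was at 176, 318 and 614 CPM in mutant *Sp8* or *Sp9* members and at 0, 139.8 and 421 CPM in mutant *Lhx6* members, where it was all but missing in control (difference of log2 fold changes -5.69, SE 0.40, adjusted p = 2.51e-41). *Isl1* moved the same way, to 150.1, 194 and 478 and 30.1, 148 and 212 CPM (-2.72, SE 0.33, adjusted p = 2.95e-13). *Lhx8* changed sides, to 6.90, 46.7 and 342 CPM in *Sp8* or *Sp9* members and 0, 6.23 and 83.0 CPM in *Lhx6* members (5.31, SE 0.56, adjusted p = 2.66e-17), and was higher in the former in 7 of 9 embryos.

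*Sema3c* was lower in mutant *Lhx6* members, at 0, 0 and 87.2 CPM, and near its control level in *Sp8* or *Sp9* members, at 34.1, 37.8 and 101 CPM (3.35, SE 0.48, adjusted p = 5.70e-09). *Nkx2-1* (2.24, SE 0.34, adjusted p = 6.38e-08), the nuclear factor gene *Nfib* (1.46, SE 0.19, adjusted p = 2.41e-11) and the somatostatin gene *Sst* (1.46, SE 0.23, adjusted p = 2.13e-07) rose in *Sp8* or *Sp9* members relative to *Lhx6* members. With at least 2 UMIs of the 3 factors asked of a cell, which left 1 to 8 *Lhx6* cells in a mutant embryo, 10 genes passed. Among them were *Meis2* (-3.42, adjusted p = 0.0196), *Lhx8* (4.86, adjusted p = 1.64e-05) and *Sst* (3.17, adjusted p = 3.83e-10). *Isl1* (-2.10, adjusted p = 0.49), *Sema3c* (2.46, adjusted p = 0.281), *Nkx2-1* (1.83, adjusted p = 0.0786) and *Nfib* (0.79, adjusted p = 0.613) kept their sign and did not pass. The larger part of single-UMI members in *Eed-cKO*, given above, moves with this result and its part was not tested.

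**Figure D5:**
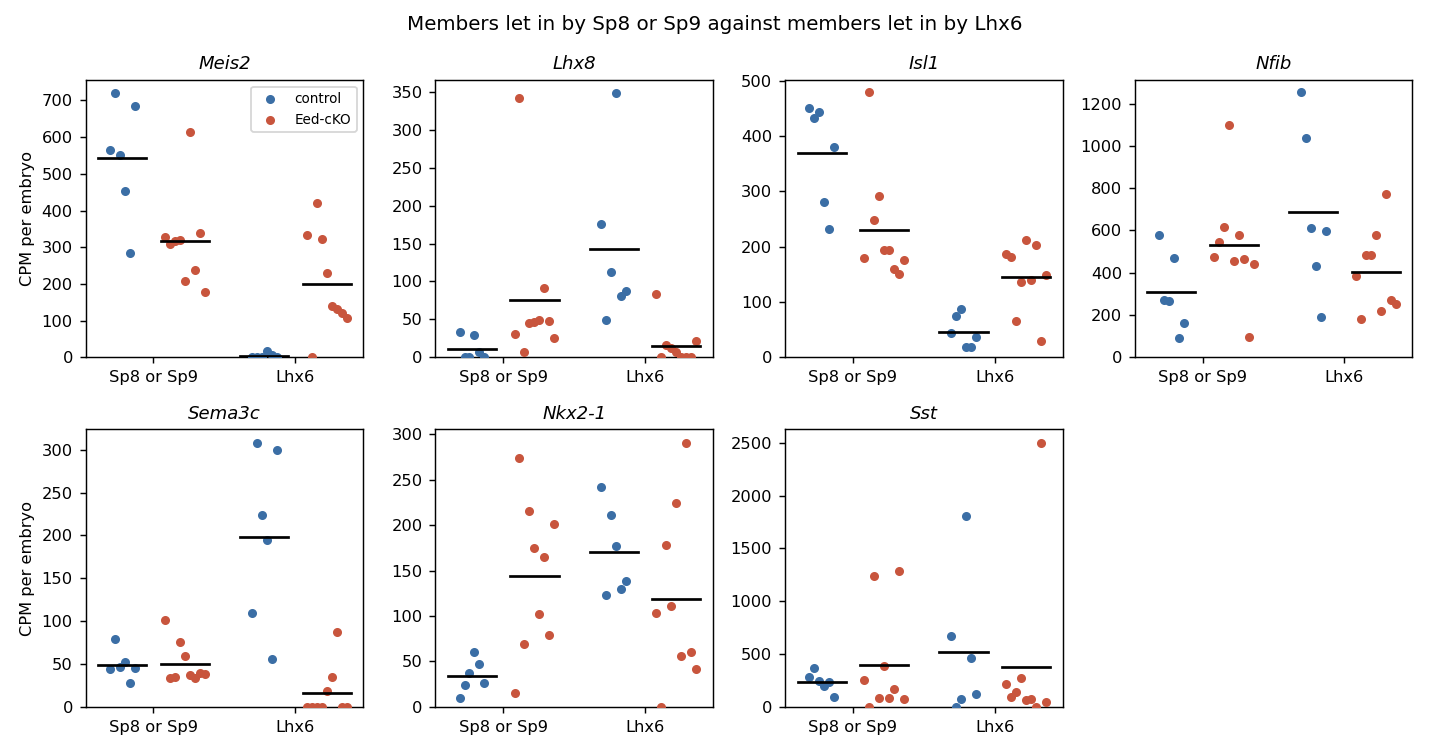
Level per embryo in CPM of 7 of the 8 genes with the smallest p of that interaction, in members let in by *Sp8* or *Sp9* alone and by *Lhx6* alone, 1 point per embryo (6 control, 9 *Eed-cKO*) with black bars for means. *Meis2* stays at or below 17.7 CPM in control *Lhx6* members and has a median of 139.8 CPM in mutant ones. *Sst* is carried by a few embryos.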

How the data were processed

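Hypothalami of single embryos were measured by droplet-based single-cell RNA sequencing. The raw UMI counts of 16510 genes in 14121 cells, deposited by the authors as 1 table (74487617 UMIs), had been made with the SureCell application (STAR 2.5.2b on mm10, SAMtools 1.3), from which cells of few UMIs or genes had been removed (lowest cell 601 UMIs). Doublets were kept, and as an alternative the 6% of cells with the highest Scrublet score in each library, computed with exact neighbours, were left out. Groups were taken from the labels, and the libraries of an embryo were summed, so that the embryo was the replicate.

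Members and lists were chosen with earlier results of these data known. Counts were summed per embryo over members, over other GABAergic cells, or over parts of the members. Genes with at least 15 UMIs over embryos and 2 in 1 embryo were tested, the 8 genes of the rule left out. The test was edgeR's (4.0.16, R 4.3.3) quasi-likelihood test on TMM-scaled sums, with Benjamini-Hochberg adjustment and a threshold of 0.05. Interactions had the embryo as a term. The fits were tested on simulated data. Shares were compared by exact permutation over the 5005 divisions of the embryos (scipy 1.17.1), and shares of pooled cells and floors of 3 UMIs cover counting error only.

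Named genes were the 12 largest rises and the 12 largest falls with at least 30 UMIs and no overlap of the embryos, up to 4 genes of each list by smallest p (2 by UMIs where none passed), and the 6 interaction genes with the smallest p. Genes on the Y chromosome and *Xist* were not named, and some other genes that the rule picks are not reported here. Genes described in members against other cells or between *Sp8* or *Sp9* and *Lhx6* members, and genes named only as absent or fallen contents of a list, were chosen after their values were seen. Coordinates are GENCODE vM21 on GRCm38, the build called mm10. DESeq2 1.42.0, limma 3.58.1 and other alternatives are given in the closing part.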

Additional observations from a re-analysis of the deposited data

Results flagged for a closer look

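One embryo lay far from the others of its genotype in 31 of 189 sets of embryos (16.4%). The chance rate of about 1 in 20 holds for normally distributed values, which CPM near 0 are not. A gene with UMIs in 1 embryo alone, such as *Tfap2a* in control, is flagged in any case, so the share is a description. In *Eed-cKO* replicate 2, the embryo with 15 members, *Hoxc10* (237 CPM), *Hoxa7* (109 CPM), *Nr2f1* (292 CPM) and *Gad2* (474 CPM) were highest and *Slc17a6* lowest (72.9 CPM). In *Eed-cKO* replicate 8, *C1qb* (101 CPM), *C1qc* (96.0 CPM), *Apoe* (859 CPM), *Cartpt* (475 CPM) and *Lhfpl3* (133 CPM) were highest, and in *Eed-cKO* replicate 5 *Fabp7* (522 CPM), *Foxj1* (33.3 CPM), *Cga* (43.8 CPM), *Aqp4* (19.7 CPM) and *Myo7a* (4.54 CPM). The control embryo with the 1207-cell library had the highest share of *Slc17a6* members (29.4%) and the highest *Slc17a6* level (123 CPM). Control replicate 2 was highest for *Tal1* (19.6 CPM) and *Gata3* (33.6 CPM) and lowest for *Egr1* (21 CPM). Control replicate 4 was highest for *Lhx6* (352 CPM), *Ppap2b* (34.1 CPM) and *Aqp4* (1.42 CPM), control replicate 3 for *Tfap2a* (2.11 CPM) and control replicate 6 for *Gabrg1* (137 CPM). The other high values were *Cdh8* (70.2 CPM), *Pcdh10* (186 CPM) and *Gm5532* (4.13 CPM) in *Eed-cKO* replicate 1, *Olig1* (60.8 CPM) in replicate 4, *Dlx1* (387 CPM) in replicate 7 and *Tac2* (14.7 CPM) in replicate 9.

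The genotype effect differed between members and other GABAergic cells, by edgeR's interaction test, for *Slc17a6* (1.25 on the log2 scale), *Fabp7* (2.17), *Tac2* (-5.21), *Onecut2* (0.83), *Apoe* (2.31) and *Ppap2b* (2.08). Between *Sp8* or *Sp9* members and *Lhx6* members it differed for *Meis2* (-5.69), *Lhx8* (5.31), *Isl1* (-2.72), *Nfib* (1.46), *Sema3c* (3.35), *Nkx2-1* (2.24) and *Sst* (1.46), a test added after the levels were seen.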

How the results depend on the processing

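Shares: without the exclusion of *Tfap2b*, *Hmx2* and *Hmx3* the members' share of all cells differed by -1.64 percentage points (p = 0.119, exact permutation test). The difference of the *Sp8* share was -2.82 points in cells thinned to 2000 UMIs and -5.33 with at least 2 UMIs of the 3 factors, and -11.6 to -8.29 with each embryo left out. That of the *Lhx6* share was 4.84 points at 2000 UMIs, 19.7 at 1000 UMIs, 14.5 with at least 2 UMIs, and -1.16 with GABAergic cells as the denominator, where that of the *Sp9* share was -4.60.

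Gene counts: with cells thinned to 2000 UMIs 158 genes passed (60 higher, 98 lower), with at least 2 UMIs 274 (139 and 135), in members with *Lhx6* and neither *Sp8* nor *Sp9* 129 (71 and 58), with libraries as samples 1083 (522 and 561), and DESeq2 called 170 lower. With each embryo left out 448 (without *Eed-cKO* replicate 5) to 659 (without control replicate 5) passed. Higher genes were 376 of 560 with library size alone, 360 of 558 with size factors of the DESeq2 kind, and 223 of 605 in members without *Slc17a6*. Of the *Hox* genes 12 passed with at least 50 UMIs per gene, 13 after thinning and 11 in *Lhx6* members, which tested fewer genes or cells. The interaction with other GABAergic cells had 99 genes without a filter and 43 with at least 50 UMIs, and that between *Sp8* or *Sp9* and *Lhx6* members 10 with at least 2 UMIs.

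Reversed log2 fold changes were, in *Lhx6* members, *Egr1* -0.0089, *Calb2* 0.051, *Slc1a3* -0.31, *Nkx2-1* -0.36 and *Isl1* 1.86, in *Sp8* or *Sp9* members *Sema3c* 0.0032, and without *Slc17a6* cells *Nhlh2* -0.27, *Nefl* -0.90 and *Thy1* -0.67. The cause was not tested. Of 2991 values of named genes under alternatives, 2803 kept direction and side of the threshold, 159 lost the threshold, 20 gained it and 9 reversed, and 35 of 81 named genes past the threshold passed under every alternative. A minimum of 1 member cell per embryo left the same embryos and was not run apart. The settings without the largest library, without *Slc17a6* cells, without non-neural markers, with the GABAergic denominator and the whole *Sp8* or *Sp9* against *Lhx6* interaction were added after seeing the data. No paired analysis was possible because the embryo numbers name no litter, animal or day shared between the genotypes.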

Other observations

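Another peptide gene had values in the same direction as *Tac2*. *Kiss1*, which encodes kisspeptin and is known to be carried with neurokinin B in the same neurons of the arcuate nucleus, was chosen after its values were seen. Whether the members include such neurons was not tested. *Kiss1* had 28 UMIs in control members and 0 in *Eed-cKO* members, and 42 and 238 UMIs in the other GABAergic cells. It lay at 0, 2.63 and 34.6 CPM in control members and 0, 0 and 0 CPM in *Eed-cKO* members, against 1.03, 3.26 and 11.7 and 0, 19.2 and 41.5 CPM in other GABAergic cells (lowest, median and highest embryo). In control members the highest embryo thus lay far above the median. With 0 UMIs in *Eed-cKO* members, the difference between the cell sets could not be estimated. *Cacna2d1*, a calcium channel subunit gene chosen in the same way, was at 28.3, 36.4 and 101 CPM in control members and 102, 155 and 211 CPM in *Eed-cKO* members, against 124, 146 and 169 and 159, 219.8 and 261 CPM in other GABAergic cells (lowest, median and highest embryo): all mutant embryos lay above all control embryos in members, and the rise was larger there (1.11, SE 0.18, adjusted p = 3.61e-05). The galanin gene *Gal* rose in members (log2 fold change 0.97, adjusted p = 0.0412) and was at -0.37 (adjusted p = 0.227) in the other cells (1.4, SE 0.25, adjusted p = 0.000252).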
